A study of Mus musculus with 6 samples.

Results

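The enzymes and regulators of polyamine metabolism were examined in whole gastrocnemius, the main muscle of the calf, from male C57B1/6 mice that were young or aged. Of 10 genes named for this pathway, 7 had at least 1 probe set that the platform's gene table maps to exactly 1 symbol, out of 18193 genes measured in this way on the array. They were Odc1, Srm, Sat1, Smox, Oaz1, Oaz2 and Azin1, with 14 probe sets among 45037 on the array. Probe sets were assigned to these genes by symbol alone. The 3 probe sets listed for Sms map to a pseudogene as well, and 1 further Oaz1 probe set does too, so these were left out. Sms, Amd1 and Paox were not analysed here. Total RNA of 3 young samples (replicates 1, 2 and 3) and 3 aged samples (replicates 51, 52 and 53) was hybridised to Affymetrix Mouse430_2 arrays, 1 sample per array. Both groups carried a normal karyotype and no treatment or transgene is named for either. The sources used here give no ages in months. Nothing in the labels states that each array stands for a separate animal, so the p-values cover the spread between these samples, and that spread may be technical.

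Polyamines are small positively charged molecules that bind RNA, DNA and ribosomes and are needed for growth and protein synthesis. Ornithine decarboxylase makes putrescine, and spermidine synthase and spermine synthase extend it with aminopropyl groups that S-adenosylmethionine decarboxylase provides. Spermidine/spermine acetyltransferase with polyamine oxidase, and spermine oxidase by itself, run the chain backwards. Antizymes bind ornithine decarboxylase, send it to the proteasome without ubiquitin and limit polyamine uptake, and antizyme inhibitor, an inactive relative of the decarboxylase, takes the antizymes up instead. In skeletal muscle this pathway is known for its response to androgens and to disuse.

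The promoters of 3 members are shown for the rate-limiting enzyme of synthesis (Odc1), the oxidase with the highest positive change among brightest probe sets (Smox) and the antizyme whose groups did not overlap (Oaz2), the last 2 chosen after their values were seen. Each line gives the 100 bases before the gene's first annotated start in RefSeq, build GRCm38.p6, 5′ to 3′, and capitals mark matches to GGGCGG on either strand (CCGCCC on the other), the letters of the GC box of general promoters.
Odc1, chr12:17544708-17544807, strand +: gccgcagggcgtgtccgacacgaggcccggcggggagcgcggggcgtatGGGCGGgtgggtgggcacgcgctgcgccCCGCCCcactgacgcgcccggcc
Smox, chr2:131491758-131491857, strand +: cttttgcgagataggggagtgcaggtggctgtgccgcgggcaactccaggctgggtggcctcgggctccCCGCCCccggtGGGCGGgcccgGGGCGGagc
Oaz2, chr9:65676448-65676547, strand +: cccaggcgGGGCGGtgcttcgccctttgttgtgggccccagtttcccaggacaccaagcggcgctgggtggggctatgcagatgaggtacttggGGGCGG
Odc1 had 2 matches, Smox 3 and Oaz2 2, and 24.7% of 32851 promoter windows of the same length held at least 1. RefSeq promoters were at hand for 5 of the 7 measured members. The arrays measured transcripts and not these promoters.

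Signals are the deposited MAS5 intensities, and a change is the aged mean minus the young mean of log2 signal, given ± the standard error of the limma fit (n = 3 per group). Aged and young muscle were compared to ask which polyamine transcripts differ with age. None of the 7 genes passed the test: limma with Benjamini-Hochberg adjustment over 22519 tested probe sets called 0 of their 14 probe sets at an adjusted p of 0.05, where it called 237 of all tested probe sets (1.05%). At an unadjusted p under 0.05 there were 2 of 14, against 10% of all tested probe sets. All 14 passed the filter on dim probe sets. The groups did not overlap on 2 of the 14, against 16.2% of all tested probe sets; the aged arrays were lower on both (8.74% of all tested) and higher on 0 (7.41% of all tested). Of the 14, 6 had a positive and 8 a negative change, and 50.5% of all tested probe sets were positive. With 1 probe set per gene, the brightest, the median change of the 7 genes was -0.10, and that of all tested probe sets was 0.0079. The absolute change of the 7 genes had a median of 0.62, against 0.46 over all tested probe sets, whose median standard error was 0.56. In these whole-muscle samples fewer cells of a type and less RNA per cell cannot be told apart.

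Each array had been scaled to a trimmed mean of 1500, and array medians ranged from 637 to 833. Of 7 markers of skeletal muscle fibres 0 passed, 5 had an unadjusted p under 0.05 in limma, and their median change was -0.63. Other tissue markers moved with the groups. Of 6 slow-fibre markers 5 fell, and their mean log2 signal, centred on the 6 arrays, was 1.73 to 2.03 in young and -2.50 to -1.55 in aged muscle. Of 6 fibroblast and matrix markers 3 fell (1.30 to 1.52 in young, -1.57 to -1.33 in aged). These 3 were the collagens Col1a1, Col1a2 and Col3a1 (-5.71, -4.62 and -3.89). Dcn, Lum and Pdgfra did not pass (-0.73, -1.91 and -0.23). Of 5 adipocyte markers 3 rose (-0.95 to -0.28 in young, 0.46 to 1.21 in aged). Of 5 tested macrophage and 3 tested endothelial markers 0 passed, 1 of 2 tested B cell markers rose, and all 3 measured red blood cell markers were dim. The B cell marker that rose was Ighm (6.28), and Cd79a did not pass (0.64). The young mean of Ighm, 7.48 on the log2 scale, was below the filter level for dim probe sets. Ighm was thus tested only through its aged arrays (mean 13.76). Its other tested probe sets ranged from -0.98 to 3.29, and none of them passed. Fluidics station 1 had washed the 3 young arrays and aged replicate 51, and station 2, under another protocol name, aged replicates 52 and 53. Gapdh and beta actin control probe sets had a higher 3 prime over 5 prime signal on the aged arrays, by a mean of 0.58 on the log2 scale. The log2 ratio was 1.71, 1.77 and 1.75 on the young arrays. It was 2.11 on aged replicate 51, 2.00 on 52 and 2.86 on 53, so the shift was uneven. The part of these markers in the values of the polyamine genes was not tested. That of the station and of the control ratio was not tested beyond fits with each as a covariate.

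**Figure D1:**
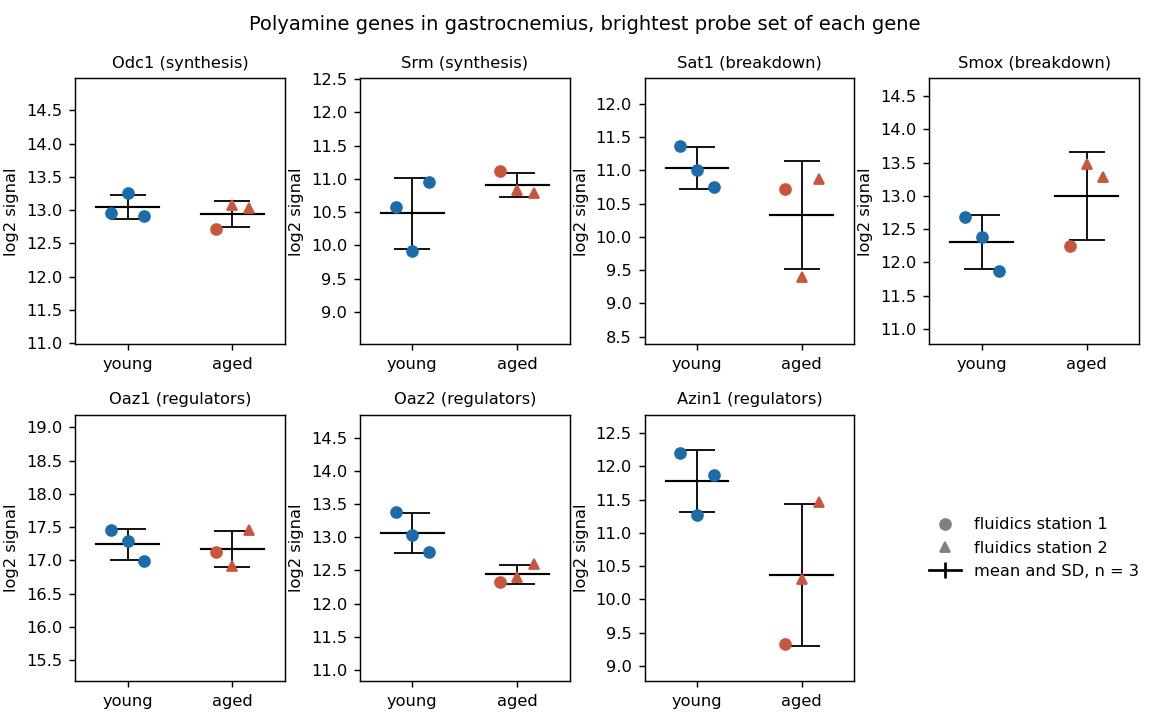
Log2 signal of the brightest probe set of each of the 7 genes on 3 young and 3 aged arrays, with circles for fluidics station 1, triangles for station 2, and black lines for mean and SD. Each panel spans the same range of log2 units but starts at its own level; the groups overlap in all panels except Oaz2, where the aged signals of 5117 to 6211 lie below the young signals of 7007 to 10660.

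Odc1 encodes ornithine decarboxylase, the enzyme that commits ornithine to the pathway. Its brightest probe set, 1437711_x_at, gave signals of 7962, 9746 and 7719 in young and 6708, 8646 and 8346 in aged muscle. The groups overlapped, with aged replicate 51 the lowest of the 6. The change was -0.10 ± 0.24 (adjusted p = 0.909), and its interval, 95% without adjustment for the number of probe sets, ran from -0.62 to 0.42, that is from 0.649 to 1.34 times the young signal. A second probe set, 1438761_a_at, gave 4511, 3577 and 4314 in young and 2217, 3085 and 2797 in aged muscle. All aged arrays lay below all young arrays there, and the change of -0.62 ± 0.31 did not pass (adjusted p = 0.531). The last, 1427364_a_at, pointed the other way. It gave 1234, 2423 and 502.2 in young and 2198, 2298 and 2088 in aged muscle (0.94 ± 0.55, adjusted p = 0.598), so the aged arrays were close together and the young ones spread on both sides of them. Across the 6 arrays these last 2 probe sets ran in opposite directions (Pearson r = -0.67, a description over arrays that share the group difference). The 3 Odc1 probe sets gave no shared direction, and their average changed by 0.071 (adjusted p = 0.958).

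Srm encodes spermidine synthase and had 1 probe set, 1421260_a_at. Its signals were 1527, 962.3 and 1985 in young and 2217, 1824 and 1768 in aged muscle. Young replicate 3 lay within the aged range, and the other young arrays lay below it. The change was 0.43 ± 0.43 (adjusted p = 0.769), with an interval from -0.51 to 1.37.

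Sat1 encodes the acetyltransferase that tags spermidine and spermine for oxidation or export. Its single probe set, 1420502_at, gave 2649, 2056 and 1717 in young and 1685, 674.7 and 1877 in aged muscle. Aged replicate 52 was the lowest array, and the other aged arrays lay near young replicate 3. The change was -0.71 ± 0.49 (adjusted p = 0.661), with an interval from -1.77 to 0.35. Without aged replicate 52 it was -0.24, and with the control ratio as a covariate it was -1.36; it did not pass in either fit (adjusted p = 0.9 and 0.464).

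Smox encodes spermine oxidase, which turns spermine straight back into spermidine. The brighter of its probe sets, 1424268_at, gave 6571, 5313 and 3759 in young and 4856, 11370 and 9941 in aged muscle. Aged replicates 52 and 53 were above every young array, and aged replicate 51 lay inside the young range. The change was 0.69 ± 0.35 (adjusted p = 0.541), with an interval from -0.068 to 1.44. The high arrays were those washed on station 2, and within station 1, where aged replicate 51 stands alone against the young arrays, the difference was -0.066. The dimmer probe set, 1446509_at, gave 1420, 942.9 and 292.1 in young and 1031, 1827 and 1410 in aged muscle (0.92 ± 0.67, adjusted p = 0.677). Both Smox probe sets were thus higher by their means, and neither passed. They ran alike over the 6 arrays (Pearson r = 0.83, a description over arrays that share the group and station differences). Within station 1 the dimmer probe set was at 0.50, against -0.066 for the brighter.

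**Figure D2:**
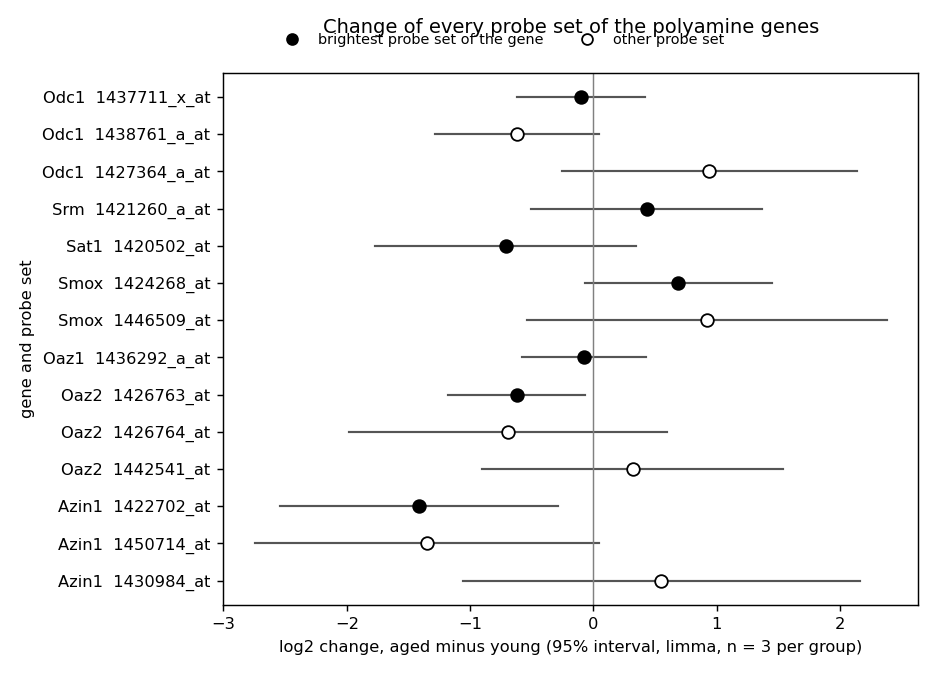
Log2 change, aged minus young, of all 14 probe sets with unadjusted 95% intervals from limma (n = 3 per group); filled points are the brightest probe set of each gene and open points the others. The intervals of all but 2 probe sets include 0, and the probe sets of Odc1, Oaz2 and Azin1 fall on both sides of it, from -1.42 to 0.55 for Azin1.

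The regulators of ornithine decarboxylase all had a negative change on their brightest probe set. Oaz1 encodes antizyme 1, the most widely expressed antizyme, and its probe set 1436292_a_at gave 179500, 159800 and 130400 in young and 142800, 123800 and 180600 in aged muscle. The groups covered nearly the same range, and the change was -0.076 ± 0.23 (adjusted p = 0.929), with an interval from 0.670 to 1.34 times the young signal. This was the smallest standard error among the 14 probe sets.

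Oaz2 encodes antizyme 2, a close relative that also binds the decarboxylase. Its brightest probe set, 1426763_at, gave 10660, 8368 and 7007 in young and 5117, 5387 and 6211 in aged muscle. Every aged array lay below every young array, as on 8.74% of all tested probe sets. The change was -0.62 ± 0.26, or 1.54-fold higher in young muscle, with an unadjusted p of 0.0314 and an adjusted p of 0.432 from limma. Within station 1, where aged replicate 51 is the only aged array, the difference was -0.74. There it was 0.33 on 1426764_at and 0.52 on 1442541_at. The other probe sets were dimmer and overlapped between groups. At 1426764_at the signals were 1343, 2386 and 1043 in young and 1879, 643.4 and 657.6 in aged muscle (-0.69 ± 0.59). At 1442541_at they were 1025, 1643 and 636.5 in young and 1470, 1658 and 849.6 in aged muscle (0.32 ± 0.56). The 3 Oaz2 probe sets did not point in one direction, and their average changed by -0.33 (adjusted p = 0.795).

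Azin1 encodes antizyme inhibitor 1, which frees the decarboxylase from antizyme. It had the greatest change of the 7 genes. Its brightest probe set, 1422702_at, gave 4702, 2473 and 3755 in young and 639.8, 1269 and 2834 in aged muscle. Aged replicates 51 and 52 lay below all young arrays, and aged replicate 53 lay between young replicates 2 and 3. The change was -1.42 ± 0.52, or 2.67-fold higher in young muscle, with an unadjusted p of 0.0182 and an adjusted p of 0.353 from limma. The interval ran from -2.54 to -0.29. A second probe set, 1450714_at, is listed under the same sequence record and gave 3690, 1749 and 3557 in young and 438.8, 3213 and 978.5 in aged muscle (-1.35 ± 0.64, adjusted p = 0.514). Aged replicate 51 was the lowest array on both, while aged replicates 52 and 53 changed places between them. The last, 1430984_at, gave 732.7, 310.5 and 1932 in young and 762.9, 1014 and 1784 in aged muscle (0.55 ± 0.74, adjusted p = 0.832). The change of the brightest probe set was -0.89 without aged replicate 51 and did not pass (limma adjusted p = 0.592). Within station 1, where aged replicate 51 is the only aged array, the difference was -2.46. The change was -2.48 with the control ratio as a covariate (adjusted p = 0.158) and -0.74 with the 3 probe sets averaged (adjusted p = 0.665).

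Synthesis was set against breakdown by centring each gene's brightest probe set on its mean over the 6 arrays and averaging within a class. The synthesis class held Odc1 and Srm, and the breakdown class Sat1 and Smox. Synthesis was at -0.076, -0.26 and 0.092 in young and 0.07, 0.11 and 0.064 in aged muscle. Breakdown was at 0.36, 0.02 and -0.36 in young and -0.19, -0.23 and 0.41 in aged muscle. In each class 1 gene was higher and 1 lower by its mean, so the class averages stayed near 0. Synthesis minus breakdown was -0.43, -0.28 and 0.45 in young and 0.26, 0.35 and -0.34 in aged muscle. The groups overlapped, with young replicate 3 and aged replicate 53 on the other group's side, and the difference of 0.18 was smaller than the spread within young (SD 0.47) or aged muscle (SD 0.37). It ranged from 0.0036 without young replicate 1 to 0.44 without young replicate 3, and was 0.35 within station 1. No p is given for these averages, since the members were chosen with results of these data known. The regulators averaged 0.67, 0.19 and 0.20 in young and -0.75, -0.47 and 0.17 in aged muscle, where aged replicate 53 lay just under the lowest young array. This average rests mostly on the brightest probe sets of Azin1 and Oaz2, since Oaz1 was near 0. Azin1 and Oaz2 each also had a probe set with a positive change (0.55 and 0.32). The class pools antizymes with the inhibitor that opposes them, so its average has no single direction for ornithine decarboxylase.

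**Figure D3:**
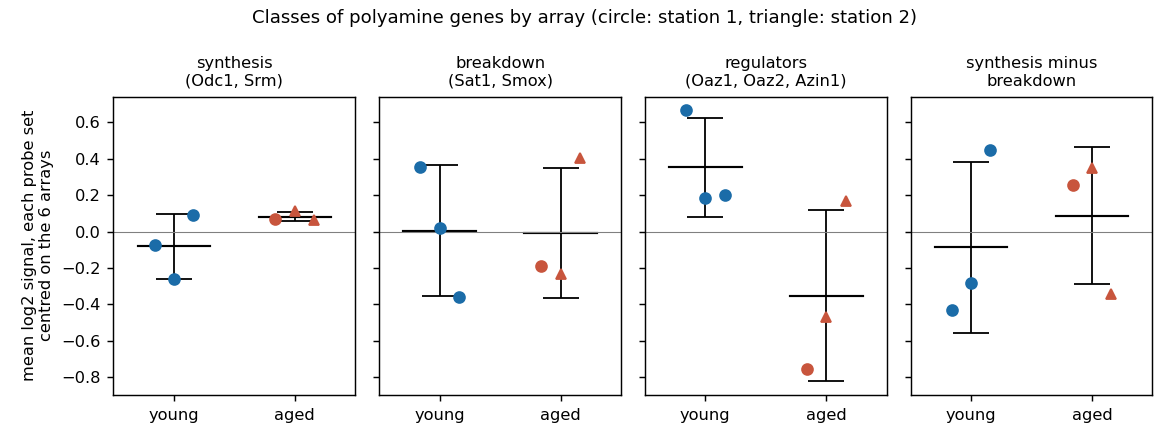
Mean centred log2 signal of the synthesis, breakdown and regulator classes and of synthesis minus breakdown on each array (circles: station 1; triangles: station 2; black lines: mean and SD, n = 3). Synthesis and breakdown overlap between groups. The regulators, which pool antizymes and their inhibitor on brightest probe sets, reach from 0.19 to 0.67 in young and from -0.75 to 0.17 in aged muscle.

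Genes around the pathway were read from a list of 36 symbols, which was chosen with earlier results of these data known. Of the 36, 31 had a probe set of 1 symbol, and 23 of those were above the filter. Of these 23 genes 0 rose, 1 fell and 22 did not pass, with 11 positive and 12 negative changes and a median of -0.039. Of all tested probe sets 0.311% rose, 0.742% fell and 50.5% had a positive change, with a median of 0.0079. The gene that fell was Slc7a1, the cationic amino acid transporter that brings arginine and ornithine into the cell. Its brightest probe set, 1454991_at, gave 8385, 8525 and 10430 in young and 2207, 2503 and 3871 in aged muscle. The groups were far apart, with the highest aged array below the lowest young array. The change was -1.71 ± 0.29 (limma adjusted p = 0.0122), or 3.27-fold higher in young muscle. Within station 1, where aged replicate 51 is the only aged array, the difference was -2.04. The second tested probe set, 1454992_at, gave 3351, 4202 and 1245 in young and 1576, 473 and 1602 in aged muscle (-1.29 ± 0.60, adjusted p = 0.503), with young replicate 3 below aged replicates 51 and 53. Its remaining probe set, 1421533_at, was dim and was not tested. The call of Slc7a1 was lost when young replicate 1, 2 or 3 or aged replicate 52 was left out (-1.76, -1.75, -1.61 and -1.63; adjusted p 0.0588 to 0.0949) and also with its probe sets averaged (-1.50, adjusted p = 0.0909) or in a fit whose spread did not follow brightness (adjusted p = 0.278). Slc7a1 was 1 of 6 tested transport genes, and the other 5 did not pass.

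Hypusine is an amino acid made from spermidine on the translation factor eIF5A alone, by deoxyhypusine synthase and deoxyhypusine hydroxylase. Of 4 tested genes of this step 0 passed, and the median was -0.36. At an unadjusted p under 0.05 in limma there was 1, against 10% of all tested probe sets. Eif5a, the factor itself, gave 91240, 84960 and 69100 in young and 51010, 51600 and 61990 in aged muscle on its brightest probe set. Every aged array lay below every young array, as on 8.74% of all tested probe sets, and the change was -0.57 ± 0.21 (adjusted p = 0.342). On its other probe set, where the groups overlapped, it was -0.27 ± 0.25. Dhps, the synthase, was at 0.62 ± 0.48 (adjusted p = 0.702), and Eif5a2, a second eIF5A gene, at -0.63 ± 0.85 (adjusted p = 0.833). The other tested Eif5a2 probe set, 1438256_at, went the other way, at 0.34 ± 0.97 (limma adjusted p = 0.925).

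The methionine cycle and salvage genes supply the aminopropyl donor and recover its by-product, methylthioadenosine. Of 7 tested 0 passed, with 3 positive and 4 negative changes. At an unadjusted p under 0.05 in limma there was 1, against 10% of all tested probe sets. Adi1 and Apip, both enzymes of the salvage route, had all aged arrays above all young arrays on their brightest probe sets, as on 7.41% of all tested probe sets. Adi1 was at 0.62 ± 0.28 (adjusted p = 0.489) and Apip at 0.78 ± 0.39 (adjusted p = 0.532). The other tested Adi1 probe sets were at 1.42 ± 0.48 and, with overlapping groups, at -0.80 ± 0.61. Ahcy, which clears S-adenosylhomocysteine, was at -0.56 ± 0.43 (adjusted p = 0.697). Of the genes that supply or divert ornithine and agmatine only Oat, ornithine aminotransferase, passed the filter (0.23 ± 0.24, adjusted p = 0.789), while Arg1, Arg2, Otc and Agmat were dim.

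Of 5 tested relatives and other regulators 0 passed, and 1 had an unadjusted p under 0.05 in limma, against 10% of all tested probe sets. Nqo1, a quinone reductase known to protect ornithine decarboxylase from degradation by the proteasome, gave 1249, 266.7 and 175.6 in young and 2042, 2032 and 2511 in aged muscle. All aged arrays lay above all young arrays, but the young arrays were spread widely, and the change was 2.49 ± 0.75 with an adjusted p of 0.212. Myc, a transcription factor that is a known activator of Odc1, was at -1.44 ± 1.09 (adjusted p = 0.691). Its signals were 536.6, 819.5 and 1964 in young and 125, 1579 and 221.4 in aged muscle. The aged mean of 8.46 on the log2 scale was below the filter level, so Myc was tested only through its young arrays (mean 9.90). Azin2, the second antizyme inhibitor, was at 0.58 ± 0.60 (adjusted p = 0.78).

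**Figure D4:**
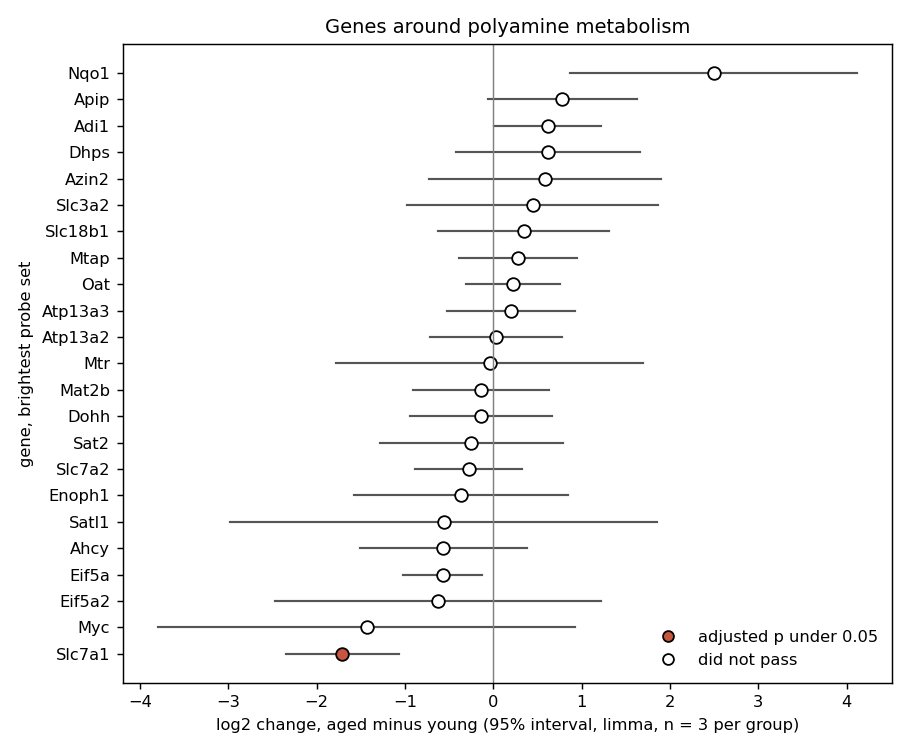
Log2 change, aged minus young, of the brightest probe set of 23 genes around polyamine metabolism with unadjusted 95% intervals from limma (n = 3 per group); the filled point passed an adjusted p of 0.05. Slc7a1 at -1.71 is the filled point. Nqo1 at 2.49 has the highest change but a wide interval, and its young mean lay below the filter level for dim probe sets.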

How the data were processed

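Total RNA was prepared with RNeasy, labelled with biotin and hybridised to 1 array per sample, per the labels' protocols. The authors deposited linear intensities per probe set. They used MAS5, per the submitters' processing notes. Its version and settings were not given in the sources used here. On each deposited array the mean after trimming 2% at each end was 1500, so the arrays had been scaled; such scaling assumes alike trimmed means, and dim MAS5 signals vary more on the log scale.

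Intensities were taken to log2, 64 control probe sets were left out, and probe sets were taken as dim and dropped where the mean log2 signal was below the median of 9.08 (540 in linear signal). The remaining 22519 were fitted with limma 3.58.1 in R 4.3.3 (lmFit, eBayes with trend, two-sided, Benjamini-Hochberg, threshold 0.05), and the steps were tested on simulated data. The probe set with the highest mean signal stood for a gene. Gene names come from the platform table, which gives 1 symbol to 34945 probe sets, several to 932 and does not list 9160. The number of arrays limits the precision.

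The text names all members with every probe set, each gene of the wider lists that passed, and otherwise up to 3 per list with the largest change among those tested. The members and lists were chosen with earlier results of these data known. Alternatives covered normalization, filter, pseudocount, spread model, array weights, station, control ratio, each array left out, and the probe sets of a gene. Figures used matplotlib 3.10.9.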

Additional observations from a re-analysis of the deposited data

How the results depend on the processing

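Under all 19 alternatives 0 of the member genes passed. Azin1, Oaz2, Sat1 and Srm kept their direction in every alternative that gave a value: Azin1 ranged from -2.48 to -0.74, Oaz2 from -0.77 to -0.33, Sat1 from -1.36 to -0.24 and Srm from 0.15 to 0.67. Leaving out the probe sets of the kinds s, x and a gave no value for Odc1, Srm and Oaz1, nor for synthesis minus breakdown. Smox was at -0.066 with the station as a covariate and, by construction, the same within the first station. Oaz1 was at 0.051 after quantile normalization, and at -0.22 to 0.049 with 1 array left out. Odc1 was at 0.071 with its probe sets averaged, and at -0.17 to 0.011 with 1 array left out. Synthesis minus breakdown was 0.62 with the control signal ratio as a covariate, and 0.0036 to 0.44 with 1 array left out. The cause of these shifts was not tested. The count of wider genes called was 0 without the trend and with probe sets averaged, and 0 to 1 with 1 array left out. Over all tested probe sets the count of 237 became 21 without the trend, 138 with the control ratio as a covariate, 365 within the first station, 136 without probe sets of the kinds s, x and a, where fewer were tested, and 124 to 342 with 1 array left out. No paired analysis was possible because the groups share no replicate number. The standard error of the member probe sets ran from 0.23 for Oaz1 to 0.74 for the dimmest of Azin1.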

Other observations

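Probe sets of a gene differed in other genes around the pathway too, in values chosen after they were seen. Atp13a2, a lysosomal exporter of polyamines, was at 0.03 ± 0.34 on its brightest probe set, where signals were 2216, 3181 and 4396 in young and 2870, 3795 and 3050 in aged muscle. On the dimmer 1452747_at the signals were 459.8, 187.1 and 292.7 in young and 1579, 988.5 and 1183 in aged muscle, so all aged arrays lay above all young arrays (2.07 ± 0.83, limma adjusted p = 0.419). The young mean of 8.20 on the log2 scale was below the filter level of 9.08. This probe set was thus tested only through its aged arrays (mean 10.26). Adi1 had a second probe set, 1438759_x_at, at 1.42 ± 0.48 (limma adjusted p = 0.293) and another, 1449076_x_at, at -0.80 ± 0.61. None of these passed the test.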
